A study of Mus musculus with 4 samples.

Results

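Among 36794 cells of 4 single-cell libraries of sorted BM macrophages, 3844 were taken for carrying at least 3 of the 5 markers Marco, Fabp3, Cnrip1, Tmem154 and Mmp27, and these cells are described here. A marker counted as carried when at least 1 UMI, a tag that marks 1 captured mRNA molecule, was read for it. Cells with at least 3 of Cdkn1c, Npy, Plpp3 and Pdpn, which mark another group of macrophages in these cultures, were not taken as members. The other 32950 cells, those included, serve for comparison within the same library. The cells were thus chosen by the detection of these 5 markers and 4 exclusion genes, and the markers with results of these same cells in view, so the levels of genes in members against remaining cells are given as a description, with no test.

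The macrophages were grown with M-CSF from bone marrow of male C57BL/6J mice of 4 to 6 weeks and cultured for 4 days. For the efferocytic group they were kept for 16 to 18 h with RM1 cells, a mouse prostate cancer line, that had been made apoptotic by 30 min of UV light, labeled with the dye CFSE and added at a ratio of 1:1, and F4/80+CFSE+ cells were sorted. The non-efferocytic group is F4/80+ cells sorted from the same macrophages cultured alone. Each of 2 experiments gave 1 library per group (so 2 libraries a group). The edgeR p-values below rest on sums per library and not on cells. They use the spread left after experiment, or library, is accounted for, estimated with information shared across genes. All cells were cultured outside the animal, and the CFSE gate selects macrophages that carry dye from RM1 cells. Of the members, 366 and 455 were in the non-efferocytic libraries of Exp. 1 and Exp. 2, and 1388 and 1635 in the efferocytic libraries.

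Marco is a class A scavenger receptor with a collagen-like stalk, by which macrophages bind bacteria, particles and altered lipoproteins. It is known from macrophages of the lung alveoli, the splenic marginal zone and the peritoneum. Fabp3 is a cytosolic carrier of long-chain fatty acids, best known from heart and skeletal muscle. Cnrip1 binds the tail of the cannabinoid receptor CB1. Tmem154 is a small single-pass membrane protein, and Mmp27 belongs to the matrix metalloproteinases, secreted or membrane-held enzymes that cut the extracellular matrix. Macrophages clear apoptotic cells by efferocytosis, in which the engulfed cell is broken down in lysosomes and its lipids have to be stored or exported.

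The 5 markers lie on 5 chromosomes. The sequences before their start sites are shown because these genes define the cells and were detected together. In GRCm38 the annotation places Marco (ENSMUSG00000026390) at chr1:120474538-120505024 on the minus strand, Tmem154 (ENSMUSG00000056498) at chr3:84666192-84704575, Fabp3 (ENSMUSG00000028773) at chr4:130308595-130315463, Mmp27 (ENSMUSG00000070323) at chr9:7571396-7581885 and Cnrip1 (ENSMUSG00000044629) at chr11:17051586-17079371, the last 4 on the plus strand. RefSeq (GRCm38.p6) has a promoter for 5 of 5. RefSeq's start sites of Fabp3 and Cnrip1 lie inside the genes as placed above, so that part of the Fabp3 window and all of the Cnrip1 window fall within them. The 250 bases before RefSeq's start sites are chr1:120505025-120505274 for Marco, chr3:84665942-84666191 for Tmem154, chr4:130308488-130308737 for Fabp3, chr9:7571146-7571395 for Mmp27 and chr11:17051609-17051858 for Cnrip1, printed from 5′ to 3′ of the gene with motif matches in capitals. Both strands were searched.
Marco: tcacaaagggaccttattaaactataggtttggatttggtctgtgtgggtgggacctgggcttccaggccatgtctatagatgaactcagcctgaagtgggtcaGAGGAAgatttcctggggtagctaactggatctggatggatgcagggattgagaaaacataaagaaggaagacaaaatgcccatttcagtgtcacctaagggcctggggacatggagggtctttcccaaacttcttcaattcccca
Tmem154: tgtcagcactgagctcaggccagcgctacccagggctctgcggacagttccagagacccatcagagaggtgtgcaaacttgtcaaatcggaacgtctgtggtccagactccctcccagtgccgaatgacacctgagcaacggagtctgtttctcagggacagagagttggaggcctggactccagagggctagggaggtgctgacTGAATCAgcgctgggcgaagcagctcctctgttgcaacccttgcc
Fabp3: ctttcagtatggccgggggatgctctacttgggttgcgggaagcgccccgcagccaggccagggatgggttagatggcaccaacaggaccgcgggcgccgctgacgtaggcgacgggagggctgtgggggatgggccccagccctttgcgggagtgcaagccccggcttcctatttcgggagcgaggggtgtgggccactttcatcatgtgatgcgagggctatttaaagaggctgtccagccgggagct
Mmp27: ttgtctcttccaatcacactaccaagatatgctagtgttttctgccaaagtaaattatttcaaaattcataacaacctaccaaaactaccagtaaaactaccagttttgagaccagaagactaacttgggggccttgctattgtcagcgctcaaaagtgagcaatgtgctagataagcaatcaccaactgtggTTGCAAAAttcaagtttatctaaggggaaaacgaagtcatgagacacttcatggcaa
Cnrip1: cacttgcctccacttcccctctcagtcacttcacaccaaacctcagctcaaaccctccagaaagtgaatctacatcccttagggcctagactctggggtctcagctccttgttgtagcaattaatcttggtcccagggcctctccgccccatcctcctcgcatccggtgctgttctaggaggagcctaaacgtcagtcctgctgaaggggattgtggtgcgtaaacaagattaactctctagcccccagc

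The capitals in Marco are the core GAGGAA bound by PU.1, the factor that sets macrophage identity, beginning 146 bases before the start site. These letters stand in 23.3% of all 32851 RefSeq promoters of this length. The capitals in Tmem154 are an AP-1 match (TGANTCA) beginning 45 bases before the start, found in 6.75% of promoters, and those in Mmp27 a C/EBP match (TTGCNNAA) beginning 57 bases before it, found in 9.56%. The antioxidant response element TGACNNNGC (10.2% of promoters) and the TATA box TATAAA (12.4%) were in 0 of 5. The E-box CANNTG was in 4 of 5, against 66.2% of all promoters, and is left in lower case. Thus no searched motif was shared by the 5 windows, and the matches are descriptions of letters, not of bound sites.

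The label of these cells as macrophages was checked against 12 macrophage genes, of which 12 were measured at 5 CPM (UMIs of a gene per 1000000 UMIs) or more. Csf1r, the M-CSF receptor, was at 801, 384, 756 and 338 CPM in members in the order non-efferocytic and efferocytic of Exp. 1, then of Exp. 2, and Adgre1, which encodes F4/80, at 496, 399, 521 and 401. Marco is known from resident macrophages. Of the 18 genes of the PPAR-gamma and alveolar macrophage list, 11 were measured, and 4 were at 0 UMIs in members, Car4, Ear1 and Krt79 of alveolar macrophages among them. Siglecf was at 0.178 to 0.343 CPM in members, Itgax at 8.45 to 14.98, Pparg at 18.9 to 25.3 and Chil3 at 1.22 to 51.8. Of the 16 resident macrophage genes 11 were measured and Timd4 and Lyve1 were at 0, whereas Mrc1 (265 to 372 CPM) and Folr2 (121 to 242 CPM) were not. Of 10 epithelial genes, 7 were at 0 in members, Epcam, Krt8 and Cdh1 among them, and the list summed to 0 to 0.947 CPM in members and 0.290 to 12.6 CPM in remaining cells. Cd3e of T cells and Flt3 of dendritic cells were also at 0. Of 10 neutrophil genes only Ly6g was at 0, and it was at 0.0164 to 0.285 CPM in the remaining cells, while S100a8 was at 14.3 to 367 CPM in members. Between 1 and 2 members per library had more than 1% of their UMIs in markers of another cell type.

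The files held 117155896 to 178218821 UMIs per library, and members were deeper than the remaining cells. The median member had 15697, 21417.5, 14053 and 18853 UMIs in the same order of libraries, against 10947.5, 16044, 9439 and 17098. A deeper cell passes a detection rule more easily. Cells marked as likely doublets, 2 cells in 1 droplet, were 14.5%, 8.21%, 18.7% and 8.99% of members, against 6.25%, 4.62%, 10.5% and 6.19% of the remaining cells. The gap in depth was narrowest in the efferocytic library of Exp. 2, and that in likely doublets, in percentage points, was wider in the non-efferocytic libraries. Their part in the results was not tested except where values at equal depth or without doublets are given. Libraries shared 14 to 118 cell barcodes (118 between the libraries of Exp. 2), of which 1 was a member in both.

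Efferocytic BM macrophages held a larger share of these cells than non-efferocytic BM macrophages in both experiments. Members were 4.42% (95% exact binomial interval 3.99 to 4.89) and 20.7% (19.8 to 21.7) of the cells in Exp. 1, and 3.39% (3.09 to 3.71) and 19.4% (18.6 to 20.3) in Exp. 2. The intervals cover counting error only. The efferocytic mean was 20.1% ± 0.909 (SD, n = 2) and the non-efferocytic mean 3.91% ± 0.727 (SD, n = 2), a difference of 16.2 percentage points. The groups did not overlap, and the share was 4.69-fold higher in Exp. 1 and 5.73-fold higher in Exp. 2. The share rests on the markers, which were chosen with these cells in view, so it is a description and supports nothing. Besides, 2 against 2 libraries allow no two-sided exact permutation p below 0.333.

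At equal depth the shares were far lower and kept their order. With every cell thinned to 5000 UMIs, which left out 1099, 544, 3404 and 505 shallower cells, members fell to 0.780% and 3.24% in Exp. 1 and 0.789% and 3.14% in Exp. 2, a difference of 2.40 points. The fold at equal depth was 4.15 in Exp. 1 and 3.97 in Exp. 2. When at least 4 of 5 markers were asked for, the shares were 0.664%, 6.03%, 0.350% and 4.90%, and the group means differed 10.8-fold. With doublets left out the difference was 16.0 points, and the share was as large without cells of other types (16.2 points).

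**Figure D1:**
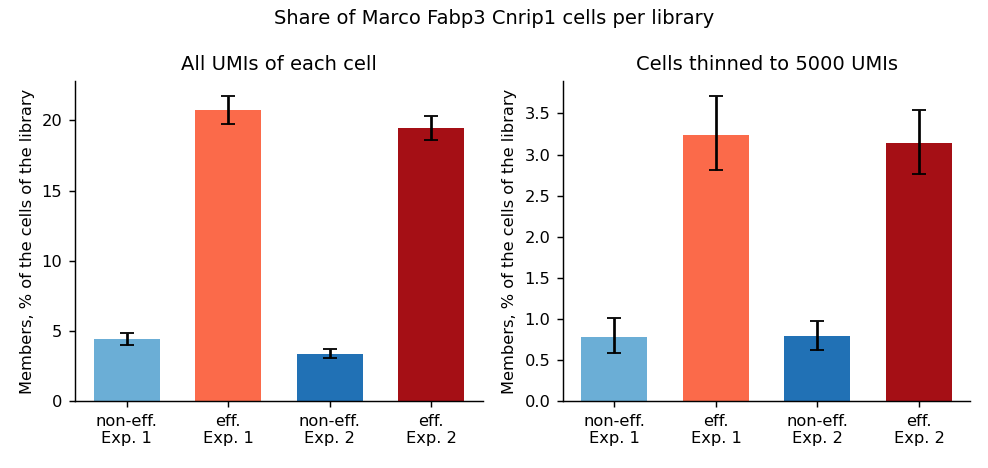
Share of Marco Fabp3 Cnrip1 cells among the cells of each library, in percent, with all UMIs (left) and with each cell thinned to 5000 UMIs (right); bars are single libraries, error bars the 95% exact binomial intervals. The efferocytic libraries stand at 20.7% and 19.4% on the left and at 3.24% and 3.14% on the right, above the non-efferocytic libraries in both panels, while the scale of the axis drops with depth.

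Most members passed the rule narrowly. Exactly 3 markers were found in 311 of 366, 984 of 1388, 408 of 455 and 1223 of 1635 members, and all 5 in 5, 49, 5 and 31. Just outside the rule, 1184, 1740, 1693 and 2431 cells had exactly 2 markers. The most frequent combination over the members was Cnrip1, Tmem154 and Mmp27 without the other markers in the libraries of Exp. 2 and in efferocytic cells of Exp. 1 (132, 533 and 268 cells), and Fabp3, Cnrip1 and Tmem154 in non-efferocytic cells of Exp. 1 (70 cells). A minority of members thus carried Marco itself: it was detected in 35.8%, 29.5%, 23.1% and 14.3% of members. Tmem154 was detected in 84.7% to 92.7%, Cnrip1 in 67.2% to 85.6%, Mmp27 in 62.9% to 74.9% and Fabp3 in 58.2% to 68.3%. A member positive for Marco held on average 2.85, 3.55, 2.03 and 2.13 Marco UMIs.

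All 5 markers were low in absolute terms, and the values that chose the members are given here without a test. Marco was at 57.3, 45.2, 28.8 and 14.8 CPM in members and at 10.8, 9.58, 6.79 and 2.49 CPM in the remaining cells, in the order non-efferocytic and efferocytic of Exp. 1, then of Exp. 2. Cnrip1 was at 67.1, 75.4, 84.4 and 124 CPM against 21.8, 24.8, 27.7 and 44.5. Cells just inside the rule (3 markers) held 50.5, 30.3, 27.8 and 8.89 CPM of Marco, and cells just outside (2 markers) 25.1, 15.5, 13.4 and 3.56. Fabp3 was at 48.1 to 60.3 CPM in members and 11.6 to 21.0 in remaining cells, Tmem154 at 76.0 to 112 and 27.5 to 61.3, and Mmp27 at 44.7 to 55.7 and 9.87 to 18.5.

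The remaining cells held about as much of Marco and Mmp27 on the CPM scale as the free RNA of the culture. In droplets under 100 UMIs, which hold no cell, Marco was at 10.7, 10.8, 6.41 and 3.15 CPM and Mmp27 at 10.5, 17.0, 10.6 and 16.5 CPM. Fabp3 was higher in the droplets of the efferocytic libraries (26.3 and 23.1 CPM) than in their remaining cells (21.0 and 14.0 CPM). The same held in the non-efferocytic library of Exp. 2 (15.7 against 11.6 CPM) but not in that of Exp. 1 (13.2 against 13.3 CPM). Tmem154 was at 24.2, 44.6, 25.1 and 50.3 CPM in droplets against 27.5, 50.8, 30.2 and 61.3 CPM in remaining cells. Cnrip1 was also lower in droplets in each library. In 247 neutrophil-rich cells, with library medians of 15683 to 19903.5 UMIs, 1.21% had a Marco UMI, 4.86% a Fabp3 UMI, 6.48% each a Cnrip1 or a Mmp27 UMI and 51.8% a Tmem154 UMI. Among all macrophage-sorted cells Marco was detected in 7.55%, 10.5%, 3.42% and 4.52%. The share in neutrophil-rich cells was below that in all cells for Marco, Fabp3, Cnrip1 and Mmp27. For Tmem154 it was above the 25.3% and 23.7% of all cells in the non-efferocytic libraries and near the 52.5% and 57.6% in the efferocytic ones. Whether the Tmem154 UMIs of neutrophil-rich cells came from these cells or from free RNA was not tested. In 70 fibroblast-rich cells, with library medians of 13186.5 to 42607 UMIs, Cnrip1 was detected in 34.3% and Fabp3 in 22.9%, above the 19.4% and 19.9% and the 13.7% and 10.8% of all cells in the non-efferocytic libraries. In the efferocytic libraries all cells had Cnrip1 at 33.1% and 43.7% and Fabp3 at 30.5% and 24.6%. Tmem154 (14.3%) and Mmp27 (1.43%) were less frequent in fibroblast-rich cells than in all cells of each library. Marco (4.29%) was so too, except against the 3.42% of the non-efferocytic library of Exp. 2.

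**Figure D2:**
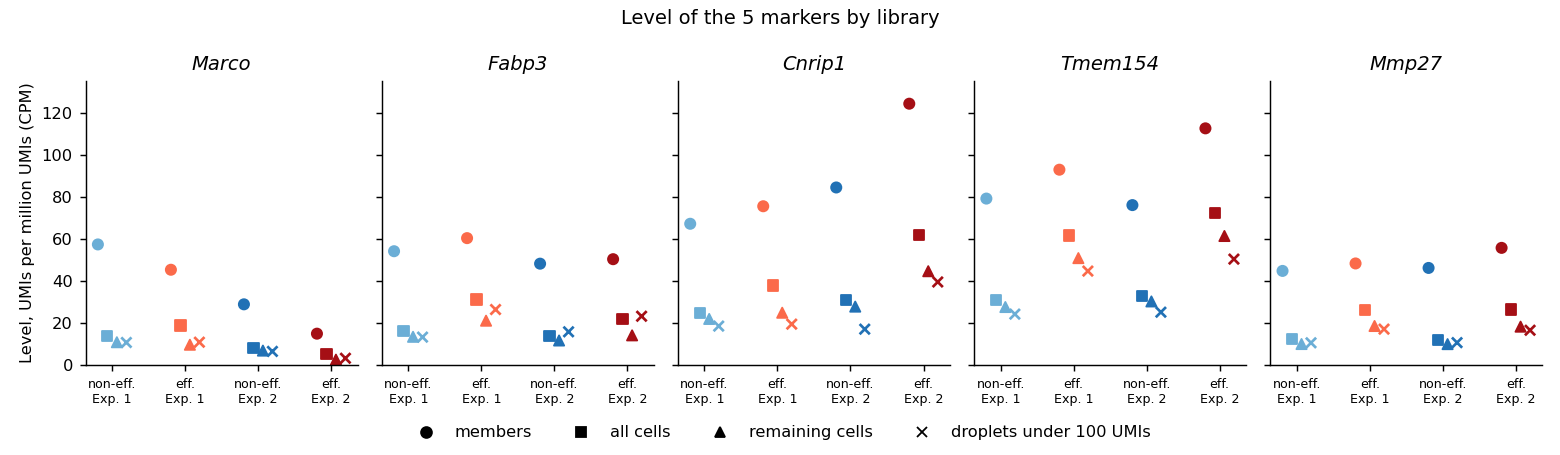
Levels of the 5 markers in CPM for each library, in members (circles), all cells (squares), remaining cells (triangles) and droplets under 100 UMIs (crosses). Members are above the remaining cells because the rule chose them so. The crosses lie near the triangles or, for Fabp3 in the efferocytic libraries and the non-efferocytic library of Exp. 2, above them. Marco falls from 57.3 CPM in non-efferocytic members of Exp. 1 to 14.8 CPM in efferocytic members of Exp. 2.

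At equal depth each marker was somewhat more frequent in cells that carried others of the 5. In cells thinned to 5000 UMIs, each marker was more frequent in cells with at least 2 of the other 4 markers than in cells with none of them, in 20 of 20 pairs of values (5 markers in 4 libraries), with a median ratio of 1.63. The ratios of Marco were 1.42 to 2.49. It was detected in 6.56%, 10.9%, 4.55% and 3.04% of cells with at least 2 other markers, and in 4.61%, 4.40%, 1.91% and 1.41% of cells with none. By pairs, 39 of 40 ratios were above 1, from 1.06 for Marco with Mmp27 to 1.69 for Cnrip1 with Mmp27, and the exception was Marco with Cnrip1 (0.962) in the non-efferocytic library of Exp. 1. These are descriptions of the cells on which the markers were found.

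Over all cells, members and remaining cells together, 4 of the 5 markers were higher in efferocytic BM macrophages in both experiments. Since the markers were chosen with results of these cells in view, the values are a description, with no test. Mmp27 was at 12.1 and 26.1 CPM in Exp. 1 and at 11.8 and 26.3 CPM in Exp. 2, a log2 fold change of 1.24 (SE 0.0807, fitted with edgeR with the experiment as a block). Tmem154 was at 30.8 and 61.6 CPM, then at 32.6 and 72.4 CPM (1.18). Fabp3 was at 16.0 and 31.1, then at 13.6 and 21.9 CPM (0.93), and Cnrip1 at 24.8 and 37.8, then at 30.7 and 61.8 CPM (0.92).

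Marco, the gene that leads the name, did not follow. It was at 13.8 and 18.7 CPM in Exp. 1 and at 7.97 and 5.17 CPM in Exp. 2, so that it was higher in efferocytic cells in one experiment and lower in the other. The log2 fold change was 0.03 (SE 0.225), and -0.08 when scaled to library totals. Inside the members and inside the remaining cells its mean was lower in the efferocytic group, at 30.04 ± 21.5 against 43.0 ± 20.1 CPM and at 6.03 ± 5.01 against 8.78 ± 2.82 CPM (SD, n = 2).

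Outside the rule, members differed little from the other macrophages of their library. Of 8591 genes that averaged 5 CPM or more, 4 (0.0466%) were at least 2-fold higher in members in all 4 libraries, and all 4 were rule markers: Marco, Fabp3, Mmp27 and Cnrip1. At least 2-fold lower in all 4 libraries were 13 (0.151%), 12 of them outside the rule. The median log2 ratio over the 8591 genes was -0.02. Since no gene outside the rule was 2-fold higher, the genes at least 1.3-fold higher in all 4 libraries are named below, a limit that was set after the values were seen. There were 16 (0.186%), of which 11 were outside the rule, and all 11 were also higher in all 4 libraries than remaining cells matched on UMIs.

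Cbr2 led these 11 genes. It encodes a carbonyl reductase that is also known from resident macrophages, and was at 20.4, 17.5, 14.2 and 15.3 CPM in members and at 10.8, 8.18, 7.56 and 6.61 CPM in remaining cells, a mean log2 ratio of 0.95 ± 0.13 (SD, n = 4). Lrrc14b, a leucine-rich repeat protein, was at 43.9, 43.0, 40.7 and 16.6 CPM against 22.1, 25.8, 19.7 and 9.32. Ednrb, the endothelin B receptor, was at 46.4, 12.98, 71.8 and 28.9 CPM against 33.1, 9.16, 44.1 and 14.7. Ednrb and Lrrc14b thus differed more between libraries than between members and remaining cells, while the ratio stayed on the same side in each library.

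Chemokines and secreted proteins made up others of the 11. Ccl4, an inflammatory chemokine, was at 166, 184, 102 and 190 CPM in members against 119, 124, 66.3 and 116 CPM, and its relative Ccl3 at 247, 139, 171 and 161 against 186, 106, 117 and 122. Wfdc17, a secreted protein of activated macrophages, was the most abundant, at 1397, 985, 1552 and 982 CPM against 998, 649, 1087 and 622 CPM. Hpse, heparanase, which cuts heparan sulfate chains of the matrix, had a mean log2 ratio of 0.51 ± 0.04, and Cd28, best known as a co-stimulatory receptor of T cells, of 0.52 ± 0.09 (SD, n = 4). Rapsn (0.56), Tns1 (0.44) and Gm13391 completed the list.

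Of the 11 genes, 7 were followed along the number of markers, as a description, since they were named for being higher in cells with at least 3 markers. Cells were sorted by how many of the 5 markers they carried, whether or not the exclusion genes were found. Cbr2 rose at every step from 0 to 4 or 5 markers in 4 of 4 libraries, from 8.94 to 22.1 and from 4.93 to 19.6 CPM in Exp. 1 and from 6.26 to 16.3 and from 3.01 to 14.8 CPM in Exp. 2. Ednrb and Wfdc17 also rose at every step in 4 of 4 libraries, Lrrc14b, Hpse and Ccl4 in 3 of 4, and Cd28 in 1 of 4. The median depth rose along the same steps, from 9463 to 18978 UMIs in the non-efferocytic library of Exp. 1 and from 13300 to 21181 in the efferocytic library of Exp. 2. The match on UMIs given above compares members with remaining cells and not these steps, so the part of depth in the rise was not tested.

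**Figure D3:**
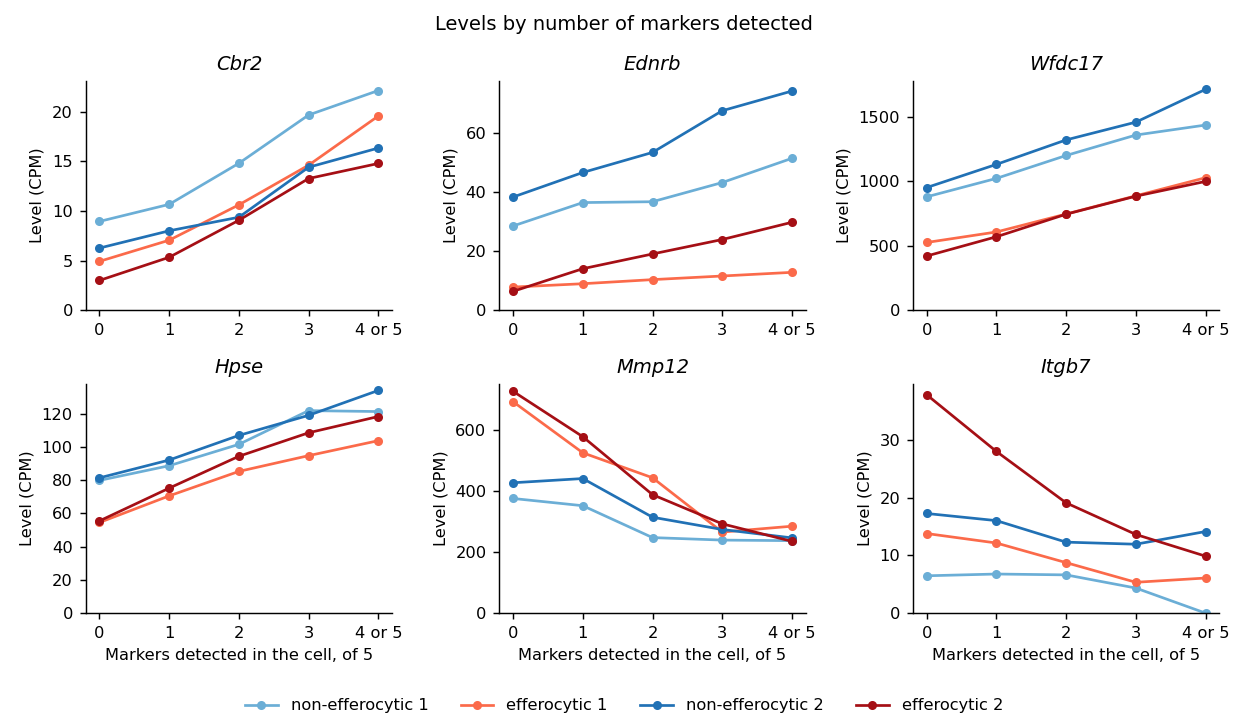
Levels in CPM of 4 genes higher and 2 genes lower in members, against the number of the 5 markers detected in a cell (0, 1, 2, 3, and 4 or 5), with 1 line per library. Cbr2, Ednrb and Wfdc17 rise at every step in each library, Hpse in 3 of 4, and Mmp12 is lower at 4 or 5 markers than at 0 in each library (285 against 694 and 236 against 728 CPM in the efferocytic ones) but falls at every step in 2 of 4.

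Mmp12 was among the genes lower in members. This macrophage elastase, also a matrix metalloproteinase, was at 200, 195, 268 and 191 CPM in members against 344, 535, 412 and 531 CPM in remaining cells, a mean log2 ratio of -1.08 ± 0.44 (SD, n = 4). Members sat in a narrow range, whereas the remaining efferocytic cells stood well above the non-efferocytic ones. Against remaining cells matched on UMIs the mean was -1.28. It was 1 of 47 genes (0.547%) at least 1.3-fold lower in all 4 libraries, of which 44 were outside the rule, and 37 of the 44 were also lower in all 4 libraries than UMI-matched cells.

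MHC class II genes, which present peptides to CD4+ T cells, were also lower in members. H2-Aa was at 19.97, 2.25, 77.5 and 5.21 CPM against 58.3, 4.43, 118 and 14.6 CPM, and the invariant chain Cd74 at 175, 19.2, 407 and 31.8 against 333, 30.2, 575 and 71.0 CPM. Of the 8 genes of the class II list, 6 were measured at 5 CPM or more and 6 were lower in all 4 libraries, with a median log2 ratio of -0.86 against -0.02 for all genes, of which 23.3% were lower in all 4. Against UMI-matched cells 1 of the 6 was lower in all 4 libraries, near the 19.2% of all genes, and H2-Aa, H2-Ab1 and H2-Eb1 were each higher in at least 1 library.

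Smaller genes that were lower in each library included Sdc1 (syndecan-1, a heparan sulfate proteoglycan), Itgb7 (an integrin beta chain), Prss46 (a serine protease), the chemokine receptor Ccr1, the mitochondrial folate enzyme Mthfd2 and the lipid droplet protein Hilpda. Itgb7 was at 3.23, 4.74, 9.74 and 10.5 CPM in members against 6.64, 11.01, 16.01 and 25.6 CPM. Prss46 was at 3.53, 11.6, 2.57 and 9.31 CPM against 7.04, 23.8, 5.91 and 19.5 CPM, with the narrowest spread of these (mean log2 ratio -0.94 ± 0.07, SD, n = 4). Sdc1 had a mean log2 ratio of -1.01 ± 0.72 and ran apart by group, at -0.40 and -0.42 in the non-efferocytic and -1.39 and -1.84 in the efferocytic libraries.

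The genes with the lowest ratios were those of neutrophils and fibroblasts. The neutrophil granule genes Lcn2 (mean log2 ratio -3.44), Ltf (-3.41) and Wfdc21 (-3.11) and the calprotectin subunit S100a9 (-2.96) led. The fibroblast genes Sparc (-2.48 ± 1.88) and Col1a1 (-2.38 ± 1.73, SD, n = 4) also had low means. They were only at -0.53 and -0.39 in the efferocytic library of Exp. 1. Against UMI-matched cells their highest library values were 0.02 and 0.22. Of 8 neutrophil genes measured, 7 were lower in all 4 libraries (23.3% of all genes). The other, Mmp8, was higher in all 4 (0.23 to 0.53), as were 14.9% of all genes. The summed level over the list of 10 neutrophil genes was 34.3 to 1101 CPM in members and 829 to 3485 CPM in remaining cells. After cells with more than 1% of UMIs in markers of other types had been left out, S100a9 had a mean log2 ratio of -0.27, and Sparc and Col1a1 of -2.07 and -1.73. There 1 gene was 2-fold lower in all 4 libraries in place of 13, and Lcn2, Ltf, Wfdc21, S100a9, Sparc and Col1a1 were not. Pdpn, an exclusion gene whose detection the rule limits in members, was among the 13 with a mean of -1.74, and of -1.73 there. The 11 genes that were higher kept their ratios there, from 0.43 for Ccl3 to 0.96 for Cbr2.

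Genes of resident macrophages were often higher in members. Of 11 measured, 8 were higher in all 4 libraries and 0 lower, with a median log2 ratio of 0.29, where 14.9% of all genes were higher in all 4 and 23.3% lower. Besides Cbr2 they included Pf4, a platelet-type CXC chemokine (0.31 to 0.45), Gas6, which bridges apoptotic cells to TAM receptors (0.25 to 0.51), and the stabilin Stab1 (0.04 to 0.57). Against UMI-matched cells the list again had 8 of 11 higher and 0 lower (22.8% and 19.2% of all genes), with a median of 0.48. Of the 12 macrophage identity genes, 8 were higher, 1 (Spi1) lower, and the median was 0.12.

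Relatives of the markers did not share their pattern evenly. Among scavenger receptors other than Marco, Mrc1, Stab1, Scarb1 and Scarb2 (0.0085 to 0.57 over the libraries), Cd5l (0.30 to 0.75) and Colec12 (0.24 to 0.44) were higher in all 4 libraries, while Msr1, the other main class A receptor (-0.34 to -0.07), and Cd36 (-0.14 to -0.04) were lower. With Marco, 7 of 10 measured were higher in all 4 libraries and 2 lower, against 14.9% and 23.3% of all genes. The fatty acid-binding proteins Fabp4 (0.20 to 0.31) and Fabp5 (0.19 to 0.45) were higher with Fabp3, while Fabp7 was at -0.34 to 0.02. Against UMI-matched cells Fabp4 and Fabp5 had means of 0.15 and 0.16. There 2 of the 4 measured genes of this family, Fabp3 among them, were higher in all 4 libraries, in place of 3. Of the cannabinoid genes, Cnr1, the receptor whose tail Cnrip1 binds, was at 0 UMIs in members, and Cnr2 was at 0.08 to 0.25. Among metalloproteinases Mmp8 (0.23 to 0.53) was higher and Mmp12 and Mmp19 were lower.

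Genes of glycolysis and PPAR-gamma were more often lower than higher. Of 17 measured glycolysis genes, 0 were higher in all 4 libraries and 10 lower, with a median of -0.11, and of 11 PPAR-gamma genes 2 were higher and 7 lower, among them the lipid droplet coat Plin2 (-0.47 to -0.29) and lipoprotein lipase Lpl (-0.27 to -0.13). Against UMI-matched cells, glycolysis had 0 higher and 11 lower, and PPAR-gamma 2 and 5. NRF2 targets had 2 higher and 7 lower of 16 (2 and 6 against matched cells). The interferon response had 5 and 0 of 13 (10 and 0), the LXR targets 2 and 5 of 14 (6 and 5), the lipid-associated genes 5 and 4 of 15 (4 and 5), and the alternative activation genes 2 and 3 of 7 (3 and 3). These counts stand beside the 14.9% higher and 23.3% lower of all genes, and 22.8% and 19.2% against matched cells. Several of the shares lie near these, such as the 2 of 16 NRF2 targets and 2 of 14 LXR targets that were higher.

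Cells in the cycling and the MHC class II programme were also counted. Cells with at least 3 of 15 cycling genes were 29.0%, 30.8%, 26.4% and 37.2% of members and 13.6%, 20.9%, 12.01% and 30.3% of remaining cells. At 5000 UMIs they were 8.52%, 3.54%, 6.04% and 8.10% against 5.82%, 5.03%, 5.89% and 9.28%, so the excess in members was not seen at equal depth in the efferocytic libraries. Cells with at least 3 MHC class II genes were 18.6%, 4.03%, 25.5% and 3.55% of members and 17.2%, 4.35%, 18.6% and 4.68% of remaining cells, higher in members in the non-efferocytic libraries and lower in the efferocytic ones. At 5000 UMIs they were 9.34%, 0.723%, 10.96% and 0.736% against 11.4%, 1.22%, 14.6% and 1.75%, lower in members in each library. Free RNA enters such counts, and its part was not tested.

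Within the members, efferocytic and non-efferocytic cells differed in many genes. UMIs were summed over the members of each library and compared with edgeR with the experiment as a block, over 11377 genes. Called at an adjusted p under 0.05 were 1499 higher (13.2%) and 1424 lower (12.5%), and in the remaining cells of the same libraries 2571 higher (18.8%) and 2359 lower (17.3%) of 13650. Of the 2923 genes called in members, 2581 were called with the same sign in remaining cells, where 4406 of these 11377 genes were called. With library totals as the scale, the counts were 1264 and 1754 in members and 1800 and 3311 in remaining cells. Without the block, members gave 653 and 527 calls. The counts depended on each library: they were 1 and 8 without the non-efferocytic library of Exp. 1, 0 and 0 without that of Exp. 2 (2427 genes with an unadjusted p under 0.05), 929 and 838 without the efferocytic library of Exp. 1 and 380 and 309 without that of Exp. 2, in fits without the block in which the lone library of a group is assumed to vary like the other group.

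Cd36 and Fabp4 were among the 10 largest increases in members, counted among called genes outside the rule with a mean of at least 20 CPM. Npy, an exclusion gene of the rule, was left out of this order at 1.79. Cd36, a scavenger receptor and fatty acid transporter, was at 442 and 1360.2 CPM in Exp. 1 and at 506 and 1632 CPM in Exp. 2, a log2 fold change of 1.70 (SE 0.124, adjusted p = 6.21e-09, edgeR). Fabp4, a fatty acid-binding protein of macrophages and fat cells, rose from 251 to 917 and from 312 to 664 CPM (1.52). Fabp5, of the same family, rose by 0.88 (adjusted p = 5.97e-05). Spp1, osteopontin, rose by 1.42 and Gpnmb, a lysosomal glycoprotein of lipid-laden macrophages, by 1.05. In remaining cells the changes were 1.70 for Cd36, 1.51 for Fabp4, 1.06 for Fabp5, 1.60 for Spp1 and 1.18 for Gpnmb. Of the 15 lipid-associated genes tested in members 12 rose and 1 fell, where 13.2% of all genes rose and 12.5% fell. Their median log2 fold change was 0.62 against -0.01 for all genes tested. In remaining cells 12 of the 15 also rose and 1 fell, with a median of 0.68, where 18.8% of all genes rose and 17.3% fell.

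Bcl2l1, Calr, Epas1 and Mif were also among these 10. Bcl2l1, which encodes the survival protein BCL-XL, rose from 22.3 to 46.8 CPM and from 20.7 to 90.0 CPM (log2 fold change 1.66, adjusted p = 2.32e-07). Calr, the chaperone calreticulin, rose from 201 to 550 and from 196 to 576 CPM (1.55), and Epas1, which encodes HIF-2 alpha, from 16.6 to 41.7 and from 15.4 to 49.4 CPM (1.55). Mif, the cytokine macrophage migration inhibitory factor, rose from 160 to 409 and from 162 to 432 CPM (1.43, SE 0.118, adjusted p = 3.43e-08). Qpct (1.76), Nckap5l (1.66), Cyfip2 (1.46) and Fam198b (1.43) complete the 10. In remaining cells the log2 fold changes were 1.55 for Bcl2l1, 1.47 for Calr, 1.65 for Epas1 and 1.49 for Mif.

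Antigen presentation genes were among the 10 largest decreases. H2-Ab1 was at 30.7 and 3.12 CPM in Exp. 1 and at 84.6 and 5.18 CPM in Exp. 2 (log2 fold change -3.69, SE 0.157, adjusted p = 3.21e-12). H2-Eb1 was at 13.8 and 1.65, then at 61.9 and 2.86 CPM (-3.91), and Cd74 at 175 and 19.2, then at 407 and 31.8 CPM (-3.40). Of 8 MHC class II genes tested 7 fell and 0 rose, with a median of -3.49, where 12.5% of all genes fell and 13.2% rose. Ciita, their master regulator, which averaged under 20 CPM, was among the 7 (-4.95, adjusted p = 5.73e-08, edgeR). In remaining cells 8 of the 8 fell, with a median of -3.19, and H2-Ab1, H2-Eb1 and Cd74 were at -3.41, -3.40 and -3.14. The members of the non-efferocytic library of Exp. 2 held more of each of these than those of Exp. 1. Also falling were the T cell attracting chemokine Ccl5 (from 52.5 to 5.87 and from 43.3 to 3.12 CPM, -3.40, with 4.55 and 36.2 CPM in the remaining non-efferocytic cells), the ion channel Tmem176b (-3.31) and the matrix protein Thbs1, thrombospondin-1 (from 64.0 to 9.74 and from 50.3 to 4.43 CPM, -3.03). Remaining cells had -1.78 for Ccl5, -2.83 for Tmem176b and -2.79 for Thbs1. In cells with at least 4 markers Ccl5 was at -0.51 and not called (adjusted p = 0.417, edgeR), while H2-Eb1 was at -6.59. With 10% free RNA removed, Ccl5, H2-Ab1 and Cd74 were at -12.3, -12.4 and -15.1. That removal sets a sum to 0 UMIs where the removed amount exceeds it, so these values are not given as sizes of the fall.

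Neutrophil genes were among the 10 largest decreases too, and most of their UMIs came from single cells. S100a9 was at 451, 1.87, 417 and 123 CPM in members (log2 fold change -4.21), and Camp and Ngp, further granule genes, fell by 3.93 and fell by 3.31 on the log2 scale. Leaving out the members with more than 1% of UMIs in markers of other types, 1 to 2 per library, took S100a9 from 2936 to 26 UMIs, from 3082 to 131 and from 4136 to 39 UMIs in the libraries where it was high, and its levels to 4.01, 1.88, 17.8 and 1.16 CPM. S100a9, Camp and Ngp were still called there, at -2.68, -2.83 and -2.90, whereas S100a9 was not called with doublets left out (adjusted p = 0.0797) and had the opposite sign in cells with at least 4 markers (3.03). Of the fibroblast genes, 0 of 5 tested were called.

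**Figure D4:**
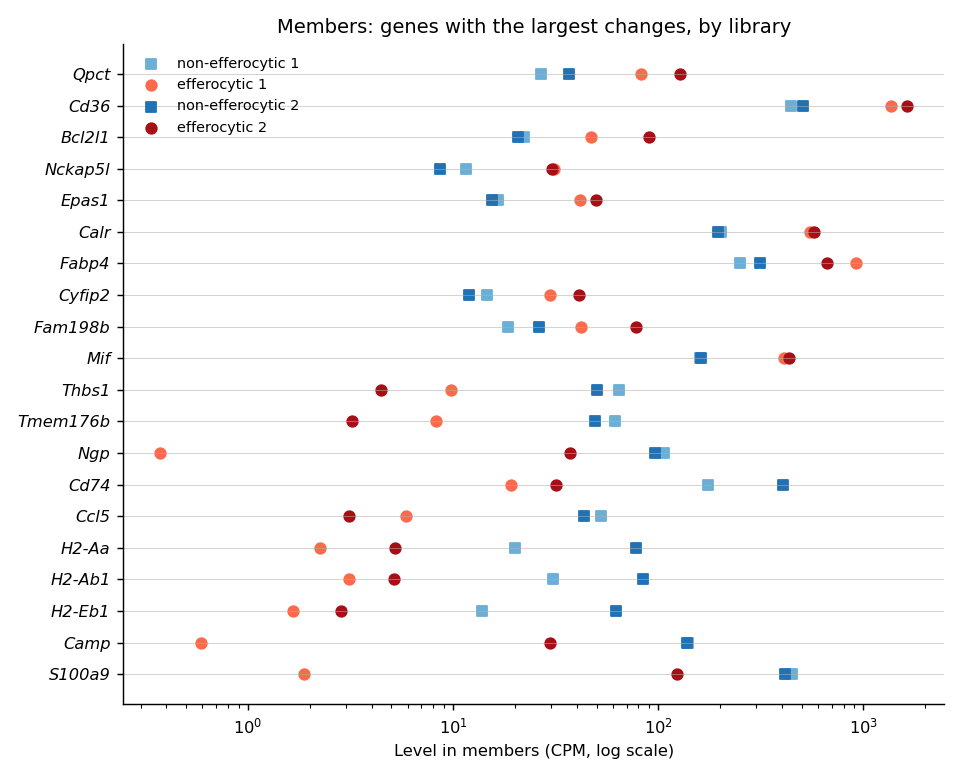
Levels in members (CPM, log scale) of the 20 genes with the largest called changes (10 each way, outside the rule and with a mean of at least 20 CPM) between efferocytic (circles) and non-efferocytic (squares) members, 1 point per library, ordered by log2 fold change. For S100a9, Camp and Ngp the efferocytic libraries are themselves far apart, S100a9 at 1.87 and 123 CPM.

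The lists are given beside the 13.2% of all genes that were called higher and 12.5% lower in members. Of 20 glycolysis and HIF target genes 14 rose and 0 fell, with a median of 0.85, among them Ldha (1.16), Eno1 (1.14), Pgam1 (1.06) and Tpi1 (1.00). Of 17 interferon response genes 12 fell and 0 rose (median -0.76), led by Cxcl10, which was at 15.1, 0.468, 8.25 and 0 CPM. Inflammatory genes had 3 rising and 7 falling of 13 (median -0.51): Ccl2 and Ccl4 rose by 0.68 and 0.57, whereas Cxcl2 (-2.81), Ccl5 and the inflammasome sensor Nlrp3 (-0.86) fell. Of 11 PPAR-gamma genes 8 rose and 1 fell (median 0.57), and of 15 LXR targets 6 rose and 3 fell (median 0.16), Apoe, the main lipid carrier of macrophages, falling by 0.72. In remaining cells 17 of 20 glycolysis genes rose and 0 fell, and 1 of 17 interferon genes rose and 10 fell. There 3 of 16 inflammatory genes rose and 9 fell. Of 14 PPAR-gamma genes 9 rose and 1 fell there, and of 15 LXR targets 5 rose and 4 fell. Of all genes 18.8% were called higher and 17.3% lower in remaining cells.

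Of 14 resident macrophage genes 6 fell and 3 rose (median -0.41), where 12.5% of all genes fell and 13.2% rose. Gpr34, a receptor for lysophosphatidylserine, fell by 2.59, the prostaglandin-degrading enzyme Hpgd fell by 2.74 and the chemokine Ccl24 fell by 3.14, while Pf4 (1.33) and Folr2, a folate receptor (0.76), rose. Cbr2, which led the genes outside the rule that were higher in members than in remaining cells, did not pass the test between groups (-0.02, adjusted p = 0.943), nor did Mrc1, the mannose receptor (0.01). Csf1r fell by 1.07 and led the 4 falling genes of the 12 for macrophage identity. In remaining cells Csf1r fell by 1.20, and 7 of the 12 fell and 1 rose. Of the 14 resident macrophage genes, 7 fell and 2 rose in remaining cells. Arg1, an alternative activation enzyme, was at 0.614, 15.3, 0.541 and 3.18 CPM (3.93, adjusted p = 3.64e-07).

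The test of the difference asked whether a gene changed by another amount in members than in the remaining cells, with library as a block and all 8 sums in 1 fit. Of 13226 genes, 7 (0.0529%) had a higher change in members and 23 (0.174%) a lower one, 954 having an unadjusted p under 0.05. Among the 23, 2 were rule markers (Mmp27, Tmem154) and 21 were not. The rule itself sets the levels of these 2 in members, so their calls are no test and only the 21 are read below. The rule also reaches other genes. Its exclusion genes placed 10 and 158 cells with at least 3 markers of Exp. 1, and 14 and 318 of Exp. 2, among the remaining cells. With no exclusion genes 2 genes were called higher and 11 lower. DESeq2 called 34. No gene was called by edgeR when the remaining cells were matched to members on UMIs, where 799 had an unadjusted p under 0.05 and the lowest adjusted p was 0.0735, and 0 without the library block (220 unadjusted). In cells thinned to 5000 UMIs, with the rule applied anew, 8 of 11593 genes were called higher and 8 lower. Unless matched or thinned cells are named, the differences below are values at unequal depth.

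Genes of mitosis were among the 21. Ccnb2, a mitotic cyclin, was at 40.2 and 7.15 CPM in members of Exp. 1 and at 33.3 and 13.1 CPM in Exp. 2, against 19.98 and 10.1 and 20.1 and 16.1 CPM in remaining cells, a difference of -1.25 (SE 0.119, adjusted p = 0.00115). Ube2c, which feeds the anaphase-promoting complex, fell from 113 to 28.0 and from 91.0 to 30.3 CPM in members and from 69.5 to 34.1 and from 63.1 to 39.3 CPM in remaining cells (-0.95, adjusted p = 0.000429). Cenpf (-1.48), Hmmr (-1.23), Birc5 (-0.89), Cdca3 (-0.85) and Cdkn3 (-1.04) also had a lower change in members. All 7 fell in members, whereas in remaining cells Ube2c, Ccnb2 and Cdca3 fell and Cenpf, Hmmr, Birc5 and Cdkn3 did not pass the test (log2 fold changes of -0.26, -0.21, -0.13 and -0.21). In each experiment non-efferocytic members held the highest level of these 7 genes and efferocytic members the lowest. Against UMI-matched remaining cells the differences were -0.89 for Ccnb2, -0.44 for Ube2c and -0.57 for Cenpf. The gap in likely doublets between members and remaining cells was also wider, in percentage points, in the non-efferocytic libraries. With doublets left out 6 of the 7 were still called, Ccnb2 at -1.36 and Ube2c at -1.06, and Cdkn3 was not, at -1.16 (adjusted p = 0.0890, edgeR). In thinned cells Ube2c (-1.42) and Birc5 (-2.03) were called and the other 5 were not, with -1.67 for Cenpf, -1.34 for Hmmr, -0.96 for Cdca3, -0.66 for Ccnb2 and -0.44 for Cdkn3.

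Of the 15 cycling genes in the list, 4 had a lower change in members and 0 a higher one, against 0.174% and 0.0529% of all genes. The list was chosen with earlier results of these data known, so the count is a description, at unequal depth. The median difference was -0.67 against 0.01 for all genes. The 4 were Ccnb2, Cenpf, Hmmr and Birc5, and the other 11 did not pass the test, from -0.90 for Ccna2 to 0.22 for Mcm5. Against UMI-matched cells 0 genes were called, and of the 4 only Birc5 was called in thinned cells. Within members, Pcna rose by 0.80, Mcm5 by 1.22 and Mcm3 by 0.58, while Cenpf, Ccnb2, Hmmr, Birc5, Mki67 and Tpx2 fell.

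Mmp12 and Sdc1 also had a lower change in members. Mmp12 was at 200 and 195 CPM in Exp. 1 and 268 and 191 CPM in Exp. 2 in members, and rose in remaining cells from 344 to 535 and from 412 to 531 CPM (difference -0.76, SE 0.0605, adjusted p = 0.000429), but -0.29 against UMI-matched cells and -0.08 in thinned cells. Sdc1 had a difference of -1.26, of -0.96 with matched cells and of 0.06 in thinned cells, and of -1.19 with doublets left out, where it was not called (adjusted p = 0.0628, edgeR). Vim, the intermediate filament vimentin (-0.31), the stathmin Stmn1 (-0.42), the cell cycle inhibitor Cdkn1a (-0.43) and the interferon factor Irf7 (-0.38) were also called.

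The 7 genes with a higher change in members included complement and lipid carrier genes. C1qa, C1qb and C1qc, the chains of the first complement component, had differences of 0.30, 0.24 and 0.21, and C1qa was at 1536 and 1101 CPM in members of Exp. 1 and at 1330.3 and 862 in Exp. 2, against 1629 and 902 and 1284 and 715 CPM in remaining cells. Selenop, the secreted selenium carrier, had the largest difference after Hbb-bs (0.43, SE 0.0599, adjusted p = 0.0121), with 3174 and 1872 CPM, then 2991 and 1236 CPM in members. Apoe differed by 0.15 and Tmsb4x, thymosin beta-4, by 0.12. Hbb-bs, a hemoglobin chain of red blood cells, was at 0, 0, 0.676 and 12.3 CPM in members and at 0, 0.0323, 33.96 and 39.4 CPM in remaining cells, so that it was present in Exp. 2 alone apart from a trace. Against UMI-matched cells the differences were 0.30 for Selenop, 0.14 for C1qa and 0.11 for Apoe. In thinned cells Selenop (0.56, adjusted p = 1.65e-06, edgeR) and C1qa (0.40, adjusted p = 0.0216) were called. Apoe (0.24), C1qb (0.27), C1qc (0.22) and Tmsb4x (0.18) were not called in thinned cells. Hbb-bs had a difference of 0.27 against UMI-matched cells, of -0.59 by DESeq2 and of -1.67 without the non-efferocytic library of Exp. 2, so that its direction depended on the fit. With doublets left out Apoe and Hbb-bs were still called. The others were not, though the differences moved little, to 0.25 for C1qa (adjusted p = 0.375, edgeR), 0.21 for C1qb (0.0890), 0.20 for C1qc (0.196), 0.43 for Selenop (0.0890) and 0.10 for Tmsb4x (0.291). Leaving out 1 library moved the counts to 19 and 65 without the non-efferocytic library of Exp. 1, 89 and 98 without that of Exp. 2, 24 and 66 without the efferocytic library of Exp. 1 and 10 and 35 without that of Exp. 2.

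**Figure D5:**
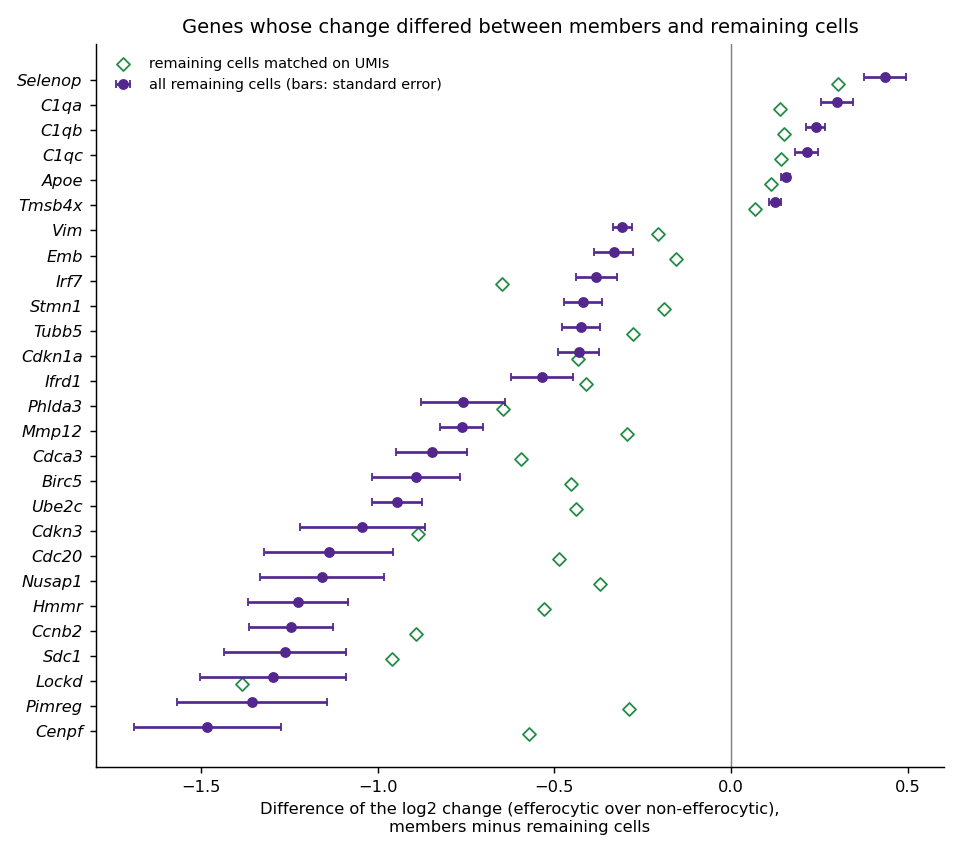
Difference of the log2 change between members and remaining cells for the genes called outside the rule apart from Hbb-bs, with all remaining cells (filled circles, bars are standard errors) and with remaining cells matched on UMIs (open diamonds). Ube2c lies at -0.44 against -0.95, each diamond keeps the sign of its circle, and Lockd and Irf7 are farther from 0 with matched cells (-1.39 and -0.65).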

How the data were processed

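Single-cell libraries of F4/80-sorted BM macrophages were made with 10x 3′ v3.1 chemistry. The authors deposited raw UMI counts for 31053 genes and every barcode, made with Cell Ranger (3.0.0 in the file headers of Exp. 1, 3.1.0 in those of Exp. 2) on mm10. Per the submitters' processing notes, Seurat 3.1 was also used. A barcode counted as a cell from 200 genes and 1000 UMIs upward when no more than 10% of its UMIs were mitochondrial, and membership followed the rule in the opening. The members, markers and gene lists were chosen with earlier results of these data known.

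UMI counts were summed over members and over remaining cells of each library and tested in R 4.3.3 with edgeR 4.0.16 (quasi-likelihood, TMM, filterByExpr, Benjamini-Hochberg, adjusted p under 0.05). Experiment, or library for the difference of the change, was a block. The experiment number in the labels pairs the libraries, and deviations of same-numbered libraries correlated at 0.203 in members (11377 genes) and 0.659 in remaining cells (13650 genes). Levels are CPM (UMIs per 1000000), and ratios of members to remaining cells are log2 of CPM plus 1, over genes averaging 5 CPM or more. Named were, outside the rule, the largest called changes (10 each way at a mean of at least 20 CPM) and differences (8 each way at a mean of at least 10 CPM), the genes past the fold, and up to 4 genes per list. Some further called or list genes, and the 1.3-fold genes, were named after their values were seen.

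Scrublet's own threshold marked 0 cells, so the top scores were taken at 8 doublets per 1000 cells for each 1000 cells of a library. Doublets were kept in the main results. Thinning drew 5000 UMIs per cell. In simulated data 100 of 100 genes changed 2-fold were recovered for the change in members and 81 of 100 for the difference. Unchanged genes called were 4 and 0. The counts had 1 common dispersion for all genes (0.00897 and 0.00141), and only genes of at least 10 CPM were changed. Recovery of lower genes, or with a dispersion that varies by gene, was not simulated. Alternatives were another scaling, DESeq2 1.42.0, gene and cell filters, other marker rules, free RNA removal, the block and each library left out.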

Additional observations from a re-analysis of the deposited data

Results flagged for a closer look

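Cells that carried at least 3 of the 5 markers together with at least 3 of Cdkn1c, Npy, Plpp3 and Pdpn were not members and stood among the remaining cells. They were 2.36% of cells in the efferocytic library of Exp. 1 and 3.78% in that of Exp. 2, above the 0.121% and 0.104% in the non-efferocytic libraries. These shares rest on the genes of the rule and were not taken at equal depth, so they are a description and support nothing. The test of the difference between members and remaining cells called 21 genes outside the rule with a lower change in members and 7 with a higher one by edgeR's interaction term, at unequal depth. With remaining cells matched on UMIs 0 genes were called, and 0 without the library block. In thinned cells 8 were called higher and 8 lower, the rule marker Tmem154 among the latter.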

How the results depend on the processing

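The experiment block was part of the main fits. Without it, members gave 653 higher and 527 lower calls, remaining cells 1214 and 966, and the difference 0 and 0. For members (1499 and 1424), DESeq2 gave 576 and 500, at least 4 markers 244 and 278, thinned cells 201 and 225, and leaving out 1 library 0 to 929 and 0 to 838. For remaining cells (2571 and 2359), DESeq2 gave 1355 lower, a mean of at least 10 CPM 1543 higher, removal of 10% free RNA 1519 and 1243, UMI-matched cells 1470 and 1467, and leaving out 1 library 0 to 1640 and 0 to 1302. For the difference (7 and 23), no gene filter gave 70 and 117, doublets left out 2 higher, cells of other types left out 20 and 63, at least 4 markers 4 and 15, no exclusion genes 2 and 11, thinned cells 8 lower, UMI-matched cells 0 and 0, and leaving out 1 library 10 to 89 and 35 to 98. The fit of the 5 markers over all cells is no test, since they were chosen on these cells, and the number under its threshold, 4 with all libraries, was 0 to 4 with 1 library left out. The share difference was 4.96 points with at least 4 markers and 2.40 when thinned. Genes lower in members than in remaining cells (13) were 1 without cells of other types, 21 when weighted by UMIs and 6 at a mean of at least 20 CPM, and at 1.3-fold 16 were higher and 47 lower. Reversed in sign were S100a9 (3.03) and Ngp (2.76) within members with at least 4 markers, and, for the difference, Hbb-bs (3.95 with all libraries and 3.96 without non-efferocytic replicate 1, but -0.59 by DESeq2 and -1.67 without non-efferocytic replicate 2) and Sdc1 (0.063, thinned). The causes were not tested. Leaving out cells of other types, matching on UMIs and the 1.3-fold limit were chosen after seeing the data. Counting depth limits low genes, since the smallest member sum held 6511359 UMIs, and 2 libraries per group limit every test.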
